A study of Mus musculus with 4 samples.

Results

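The 8 genes described here make, break down and control polyamines: Odc1, Amd1, Amd2, Srm, Sms, Sat1, Oaz1 and Azin1. They are 8 of the 31053 features in both deposited count tables. The set was chosen by the raw UMIs (unique molecule counts) of these same cells, across cell classes and genotypes, so the levels and differences below are descriptions and carry no test. FACS-sorted immune cells from digested mammary tumours of FVB/NJ mice were profiled with 10x Genomics 3′ single-cell RNA sequencing. Tumours came from PyMT mice and from Jagged1/PyMT mice, both 12 weeks old, and the study's design was to compare the immune cells that infiltrate them. PyMT is the polyoma middle T oncogene, which both groups carry, and Jagged1 is a ligand of Notch receptors. No source used here gives the promoters that drive the transgenes. The labels list 2 samples per genotype, but each genotype's samples are pooled in 1 table, so each genotype is 1 library and no difference between them has a replicate check. All intervals are 95% intervals that cover counting error only.

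Polyamines are small, positively charged molecules that bind RNA and are needed for growth and translation. Ornithine decarboxylase (Odc1) turns ornithine into putrescine. S-adenosylmethionine decarboxylase (Amd1, Amd2) makes the donor of the aminopropyl group that spermidine synthase (Srm) adds to putrescine and spermine synthase (Sms) to spermidine. Sat1 acetylates spermidine and spermine and so starts their breakdown or export. Antizyme (Oaz1) binds the Odc1 protein and sends it to the proteasome, and the antizyme inhibitor (Azin1) takes antizyme away from Odc1. Lymphocytes are known to raise polyamine synthesis when activated, and Odc1 is a known target of the transcription factor Myc.

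Amd1 and Amd2 need their sequences beside their counts, because the tables give 2 rows for nearly the same RNA. In GENCODE vM21 (GRCm38), Amd1 lies at chr10:40287458-40302186 on the minus strand and has 8 exons, and Amd2 lies at chr10:35708675-35711892 on the same strand and has 1 exon. Their main transcripts, of 3204 and 3218 bases, are 99.56% identical over aligned bases. They differ at 14 aligned bases, 1 of them in the coding sequence of 1002 bases, 1 in the 5′ UTR and 12 in the 3′ UTR. The coding difference is G1124C, counted from 1 at the 5′ end of the Amd1 transcript. A read must cross such a difference to be given to 1 of the 2 genes. This one lies 2080 bases from the 3′ end of the Amd1 transcript, far outside its last 500 bases. The substitutions nearest that end lie 1 to 5 bases from it, and the next lies at 528 bases. The stretch around G1124C is shown as an example only, and the capital marks that base.
Amd1: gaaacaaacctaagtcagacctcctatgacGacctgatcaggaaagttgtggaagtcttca
Amd2: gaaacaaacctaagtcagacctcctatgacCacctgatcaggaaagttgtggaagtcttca
Of all windows of 90 bases in the Amd1 transcript, 24.4% do not occur in Amd2. In the last 500 bases, where a 3′ assay reads most, 1.46% of Amd1 windows and 3.65% of Amd2 windows do not occur in the other. Where only reads that fit a single gene are counted, as is usual for Cell Ranger, both rows would hold only the reads that cross a difference. The share of Amd reads that the rows hold was not measured. The split between the 2 rows is uncertain, and they are also given as a sum.

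The bases before the transcription start, by contrast, hardly resemble each other, and they are shown for that contrast. Since the split of UMIs between the 2 rows is uncertain, a change in either row cannot be tied to 1 of the 2 starts. These are the 120 bases before each start in the RefSeq promoter table (GRCm38.p6), Amd1 at chr10:40302189-40302308 and Amd2 at chr10:35711892-35712011, both on the minus strand. Capitals mark TATAA and TGACG, a short form of the cyclic AMP response element, on either strand.
Amd1: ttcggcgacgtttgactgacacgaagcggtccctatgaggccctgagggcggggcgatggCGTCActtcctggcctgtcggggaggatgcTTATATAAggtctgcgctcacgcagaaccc
Amd2: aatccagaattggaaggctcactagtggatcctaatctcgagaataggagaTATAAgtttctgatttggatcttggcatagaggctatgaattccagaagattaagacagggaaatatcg
The sequences are identical at 36 of 120 positions. TATAA occurs in 24.9% and TGACG in 20.8% of the 32851 RefSeq promoter windows, which run from 250 bases before to 50 after a start. The Amd1 matches to TATAA overlap and lie 30 and 27 bases before the start, whereas the nearest in Amd2 lies 69 bases before it. The promoter table holds 6 of the 8 genes, all except Srm and Azin1. CACGTG, the E-box letters that Myc is known to bind, occur in 7.15% of windows and in 1 of the 2 Sms windows (196 bases before that start), and TGACG occurs in the windows of Odc1 and Oaz1. Such matches are descriptions of letters only.

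The tables hold 36012036 UMIs (PyMT) and 55506773 UMIs (Jagged1/PyMT). Barcodes that reached 500 UMIs and 250 genes with no more than 10% mitochondrial UMIs numbered 7444 and 7875, and 7001 and 7379 remained after 443 and 496 were left out as doublets. Of the called barcodes, 70 occur in both libraries (0.940% and 0.889%). Cells were clustered without the 8 genes or the other pathway genes, and 27 clusters were named from fixed markers as "-like" classes, since no protein was measured. Markers bore the main names out: Cd3e was at 1105 and 1027 CPM (UMIs per 1000000 of the class total) in CD4 T cell-like cells of the PyMT and the Jagged1/PyMT library, Cd79a at 3592 and 3313 CPM in B cell-like cells, and C1qa at 3837 and 4133 CPM in macrophage-like cells. A cluster holding both T cell and macrophage genes (132 and 468 barcodes) was left out as mixed. Epithelial-like cells (106 and 51) passed the sort. Classes were made up differently in the libraries: of CD4 T cell-like cells, clusters 0, 3 and 4 held 66.7% in PyMT and 27.3% in Jagged1/PyMT, and clusters 9 and 10 held 14.3% and 54.6%. The largest B cell-like cluster was cluster 5 in PyMT (554 of 1191) and cluster 13 in Jagged1/PyMT (600 of 1002). The NK cell-like class, with Ncr1 at 212.5 and 229.7 CPM, also held Cd3e at 1204 and 881 CPM, near the CD4 T cell-like level. Its Cd8a was at 382.6 and 479 CPM, against 298 and 401.6 CPM in CD8 T cell-like cells. Its Cd8b1 was lower, at 12.9 and 61.5 CPM against 536.6 and 655.4 CPM. The name thus does not set this class apart from T cells, and the share of T cells in it was not tested. Macrophage-like cells were 221 and 2216, with the cluster of shallow barcodes the largest in PyMT (107 cells) and that of deep barcodes the largest in Jagged1/PyMT (949 cells). Barcodes with core genes of a second lineage were 1.37% and 5.03% of CD4 T cell-like, 2.46% and 9.47% of CD8 T cell-like cells, 2.27% and 4.79% of B cell-like cells and 26.2% and 24.7% of macrophage-like cells. Leaving them out turned the direction of 1 ratio of the 8 genes in these 4 classes, that of Sms in macrophage-like cells.

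Of the 8 genes, 1 was over 1.5-fold higher (Srm) and 3 were over 1.5-fold lower (Amd1, Amd2, Odc1) in Jagged1/PyMT than in PyMT CD4 T cell-like cells. Among all 8604 genes with at least 50 UMIs in that class, 5.06% passed 1.5-fold upward and 7.69% downward. The same 1 and 3 genes passed in CD8 T cell-like cells, where 4.84% of 7669 genes were higher and 7.34% lower. In B cell-like cells Amd1 and Amd2 were the 2 lower genes and 0 were higher, beside 4.66% higher and 6.82% lower of 7561 genes. In macrophage-like cells, again 2 were lower, Amd1 and Amd2, and 0 higher, beside 10.2% higher and 10.3% lower of 10254 genes. The median log2 ratio of the 8 genes was −0.14, −0.07, −0.13 and −0.06 in these 4 classes, against −0.02, −0.03, −0.05 and 0.03 over all genes. Since the genes were picked with these ratios known, the counts describe the set and support nothing more.

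**Figure D1:**
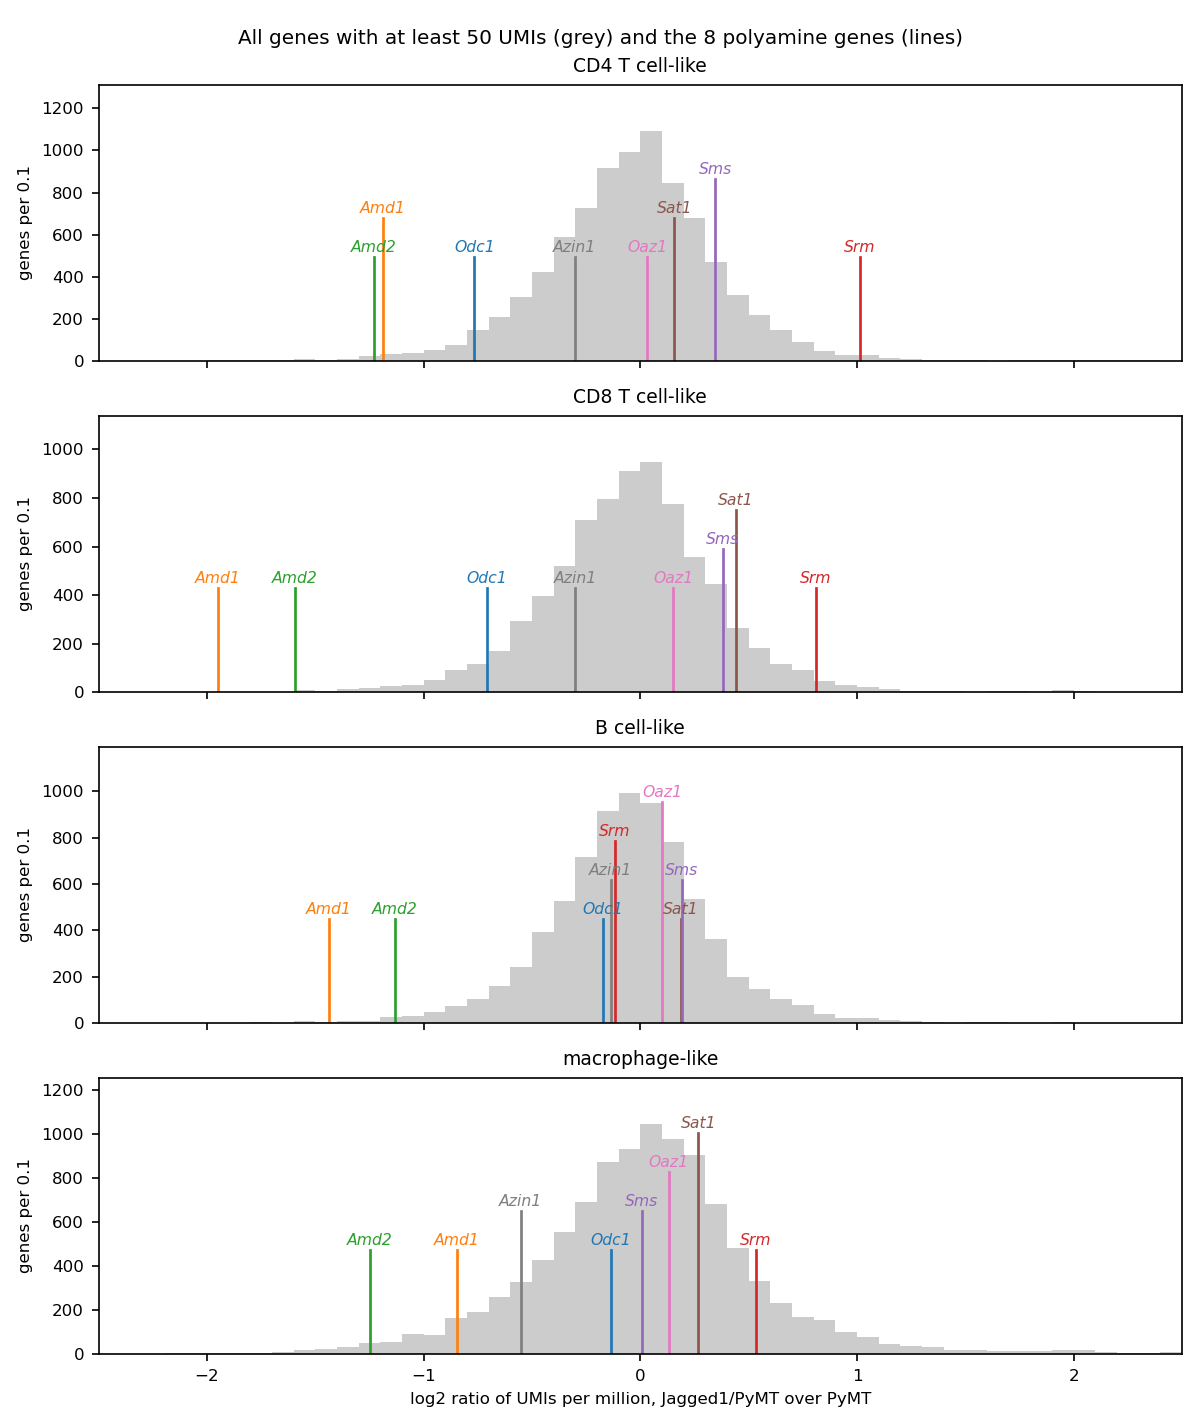
Log2 ratio of CPM (x axis, Jagged1/PyMT over PyMT) against the number of genes per bin of 0.1 (y axis) in the 4 classes with at least 200 cells in each library; grey bars are all genes with at least 50 UMIs and coloured lines the 8 polyamine genes. Amd1 and Amd2 stand in the lower tail in every panel, and Srm in the upper tail in both T cell panels (log2 ratio 1.01 and 0.81).

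Odc1, the first enzyme of the pathway, was most abundant, among the larger classes, in B cells and regulatory T cell-like cells. In the PyMT library its level was 377.5 CPM (332.8 to 426.4) in activated B cell-like cells, 268.9 in regulatory T cell-like, 249.9 in B cell-like and 184 in NK cell-like cells. In the Jagged1/PyMT library the same classes stood at 281 (248.7 to 316.3), 182 (146.5 to 224.4), 221.6 and 135 CPM. Activated B cells thus led the 13 classes with at least 50 cells in both libraries, while regulatory T cell-like and B cell-like cells did not differ beyond the interval of their ratio in either (1.08, 0.936 to 1.23, and 0.823, 0.653 to 1.03). CD4 T cell-like cells held 96.0 and 56.5 CPM, so the B cell-like level was 2.60-fold (2.39 to 2.83) and 3.93-fold (3.44 to 4.49) theirs. Activated B cell-like cells, the cluster with Myc, Egr1 and Irf4 RNA, exceeded the other B cells 1.51-fold (1.31 to 1.73) and 1.27-fold (1.10 to 1.46).

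At the low end of Odc1 stood mature dendritic cell-like cells with 34.0 and 33.5 CPM and neutrophil-like cells with 42.4 and 32.0 CPM. Shallow macrophage-like barcodes, at 28.6 and 48.4 CPM, were in the same range. Small classes outside the 13 with at least 50 cells in each library reached high levels: plasmacytoid dendritic cell-like cells (24 and 33 cells) held 349.6 and 119.7 CPM, gamma-delta T cell-like cells (60 and 30 cells) 379 and 75.1 CPM, and cycling T cell-like cells (24 and 31 cells) 243.5 and 197.5 CPM. Plasmacytoid thus exceeded mature dendritic cell-like cells 10.3-fold (6.33 to 17.3) and 3.58-fold (1.91 to 6.92). Free RNA, read from barcodes under 100 UMIs, held Odc1 at 150.3 and 75.9 CPM, above several classes, and its part in their levels was not tested.

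Between genotypes, Odc1 was over 1.5-fold lower in Jagged1/PyMT CD4 and CD8 T cells and within 1.5-fold in B cells and macrophages. The log2 ratio was −0.77 (−0.95 to −0.59) in CD4 T cell-like and −0.71 (−0.93 to −0.49) in CD8 T cell-like cells, where levels were 108.5 and 66.4 CPM. With classes set by core gene UMIs in place of clusters, the CD8 ratio was −0.55 and no longer past 1.5-fold. It was −0.56 (−0.92 to −0.21) in regulatory T cell-like cells and −0.45 (−0.79 to −0.11) in NK cell-like cells. In B cell-like cells it was −0.17 (−0.31 to −0.04), which turned to 0.03 when cells were thinned to 1000 UMIs. Macrophage-like cells gave −0.13 (−0.38 to 0.12), which turned to 0.41 with thinned cells, to 0.21 as a mean over cells and to 0.04 with core gene classes, and was −0.57 with the coarser clustering. Over the 13 classes, 11 were lower and 2 higher, and 8 intervals lay below 0. Within the CD4 clusters the log2 ratio was −0.94 in cluster 1, −0.86 in cluster 4, −0.76 in cluster 9 and −0.58 in cluster 3, all with intervals below 0. In clusters 0 and 10 it was −0.15 (−0.93 to 0.55) and −0.01 (−0.48 to 0.47). Of the smaller classes, 3 had intervals below 0, with −2.34 (−3.33 to −1.48) in gamma-delta T cell-like, −1.55 (−2.22 to −0.91) in plasmacytoid dendritic cell-like and −1.06 (−1.48 to −0.65) in cDC2-like cells (47 and 57 cells). The intervals held 0 in cycling T cell-like (−0.30, −0.67 to 0.07), Arg1 macrophage-like (−0.01, −0.62 to 0.66) and cycling macrophage-like cells (0.27, −0.53 to 1.19).

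**Figure D2:**
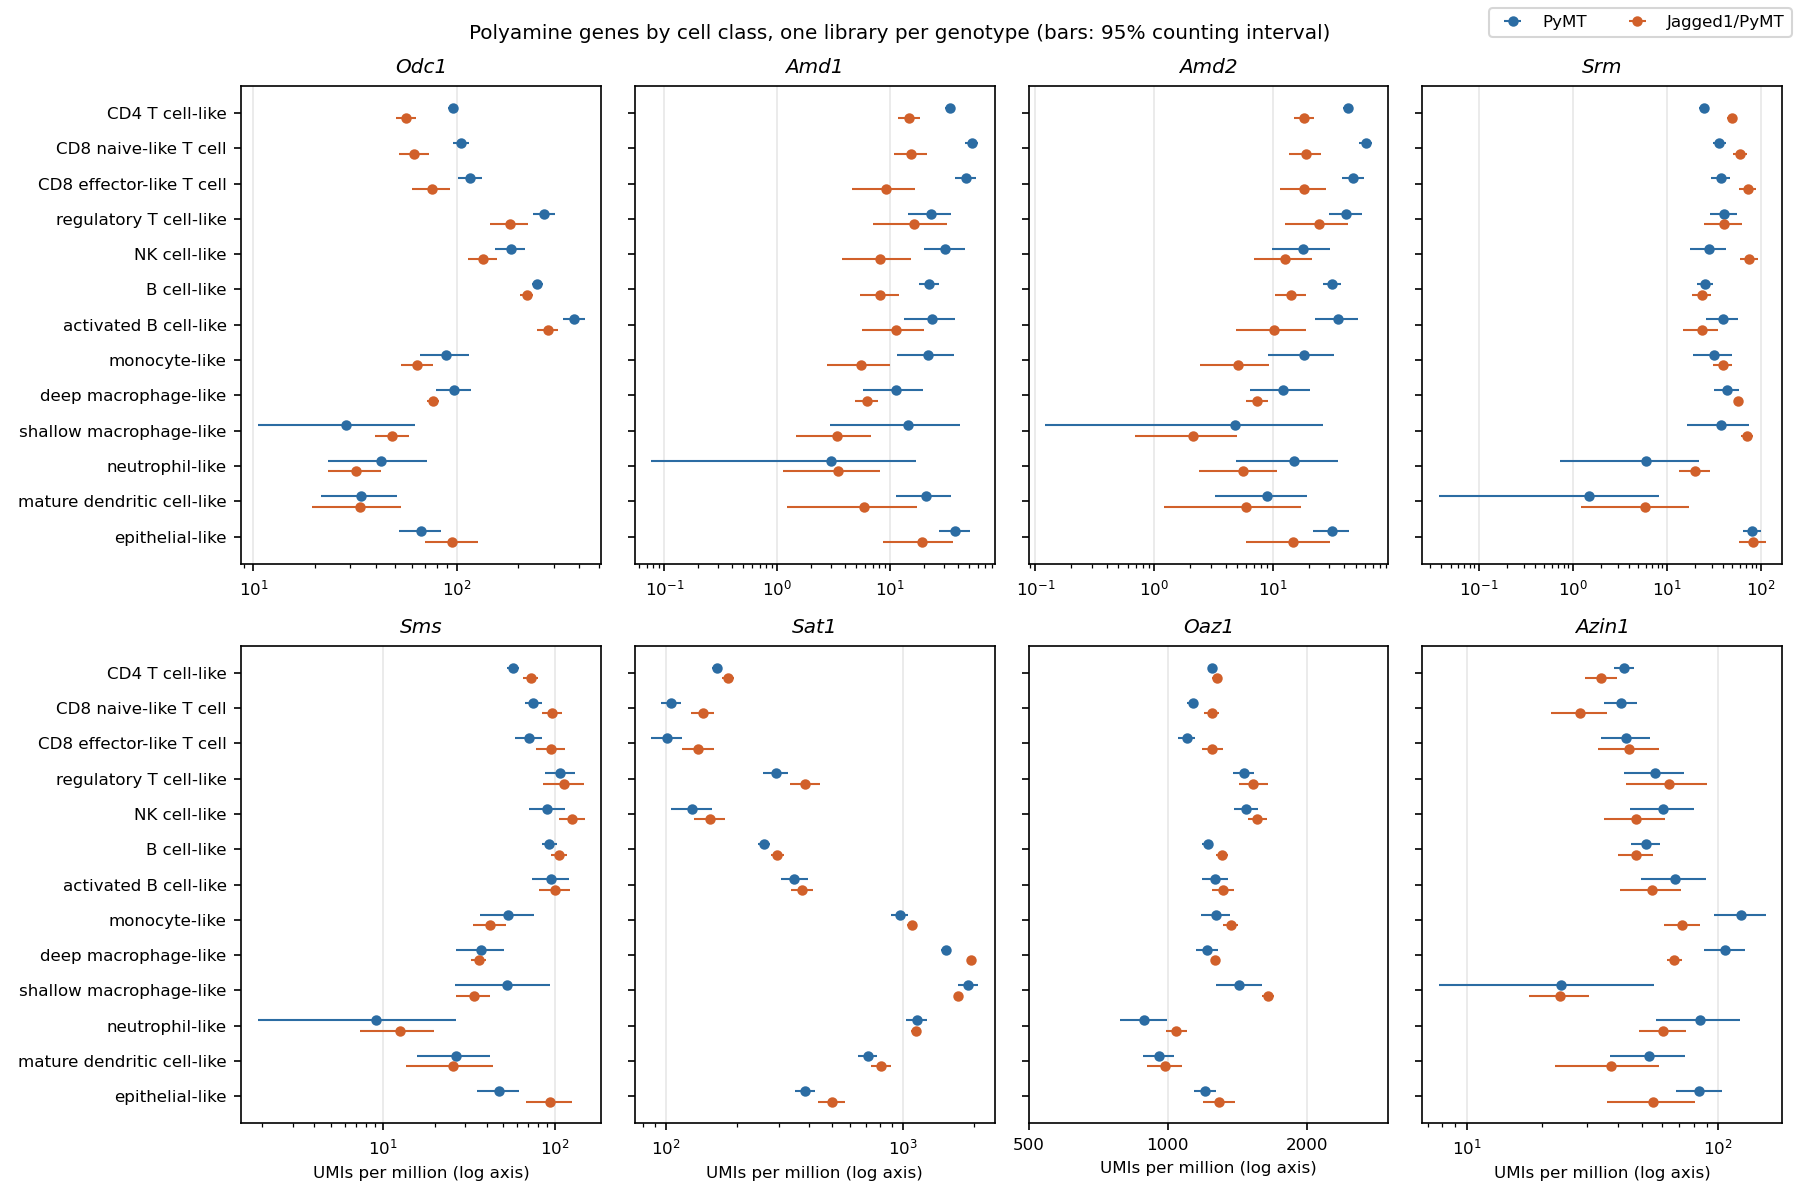
Level of each gene (x axis, CPM on a log axis) in the 13 classes with at least 50 cells in each library (y axis); points are 1 library per genotype, bars are 95% Poisson intervals. Odc1 is highest in activated B cell-like cells (377.5 and 281 CPM), Sat1 in macrophage-like classes, and Oaz1 spans less than any other panel.

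The levels of the Amd1 and Amd2 rows were lower in the Jagged1/PyMT library in almost every class. No source used here gives either library's read length or the treatment of reads that fit both genes, and their part in the difference was not tested. Amd1 was at 33.7 CPM (396 UMIs) in PyMT and 14.8 CPM (84 UMIs) in Jagged1/PyMT CD4 T cell-like cells, and at 51.4 and 13.3 CPM in CD8 T cell-like cells. In B cell-like cells it was at 22.3 and 8.23 CPM, and in macrophage-like cells at 12.5 and 6.94 CPM. The log2 ratios were −1.19 (−1.55 to −0.85), −1.95 (−2.43 to −1.5), −1.44 (−2.11 to −0.81) and −0.85 (−1.49 to −0.13). Amd2 was at 42.9 and 18.3 CPM, 56.7 and 18.8 CPM, 31.4 and 14.3 CPM, and 15.9 and 6.69 CPM in the same 4 classes. Its log2 ratios were −1.23 (−1.55 to −0.92), −1.60 (−2.0 to −1.21), −1.13 (−1.65 to −0.64) and −1.25 (−1.83 to −0.61). Both genes kept this sign under each of the 11 alternatives tried, with ranges of −1.63 to −1.02 and −1.35 to −1.10 in CD4 T cell-like cells, of −1.70 to −0.76 and −1.83 to −0.51 in macrophage-like cells.

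Summed, the 2 rows were lower in Jagged1/PyMT in 13 of 13 classes, with log2 ratios from −1.91 in monocyte-like to −0.65 in regulatory T cell-like cells and intervals below 0 in 9. The T cell-like classes together, without the NK cell-like class, held 84.7 CPM (1670 UMIs) against 31.8 CPM (331 UMIs), a ratio of 0.376 (0.333 to 0.423). All B cells held 54.4 against 22.3 CPM. Epithelial-like cells were also lower (log2 ratio −1.03, −1.91 to −0.24). Free RNA showed the same direction, with 50.4 and 12.7 CPM (log2 ratio −1.99, −2.72 to −1.30). Free RNA can come from any of the cells, and their mix differed between the libraries. Macrophage-like cells, which held the sum at 28.4 and 13.6 CPM, numbered 221 in PyMT and 2216 in Jagged1/PyMT. The part of the cell mix in the free RNA difference was not tested.

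By class, the sum was higher in CD4 T cells than in B cells and macrophages. In PyMT, CD4 T cell-like cells held 1.43-fold (1.23 to 1.66) the level of B cell-like and 2.70-fold (2.03 to 3.67) that of macrophage-like cells. In Jagged1/PyMT the same ratios were 1.47 (1.11 to 1.95) and 2.43 (2.02 to 2.91). Epithelial-like cells, at 69.3 and 33.9 CPM, stood near the CD4 level of 76.6 and 33.1 CPM. For Amd1 alone, no neighbours in the order of the 13 classes differed beyond the interval of their ratio in either library, nor did they for Amd2.

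Only 20 of the 6783 genes measured in all 4 classes (0.295%) were over 1.5-fold lower in every one, and 8 (0.118%) were over 1.5-fold higher in every one. By the mean of the 4 log2 ratios, Amd1 (−1.36) and Amd2 (−1.30) were the 2 lowest of those 20. Next came Gfod1 (−1.14), then Lmna, a nuclear lamin (−1.09), and Crem, a transcription factor of the cyclic AMP pathway (−1.05). Pabpc1, the poly(A)-binding protein gene (−0.83), and Slc38a2, an amino acid transporter gene (−0.83), were also among them. These 5 were named after their values were seen.

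Within the CD4 clusters Amd1 ranged from −2.87 (cluster 0, 1 UMI in Jagged1/PyMT) to −0.31 (cluster 9), and Amd2 from −1.61 (cluster 4) to −0.77 (cluster 10). All 6 clusters were lower for both genes. Intervals lay below 0 in 4 clusters for Amd1 (all except 9 and 10) and in 4 for Amd2 (all except 0 and 10). The Amd1 difference was smallest in clusters 9 and 10, which held most CD4 cells of Jagged1/PyMT, and there PyMT cells stood at 20.1 and 21.7 CPM, below the 30.2 to 40.6 CPM of the other 4 clusters.

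**Figure D3:**
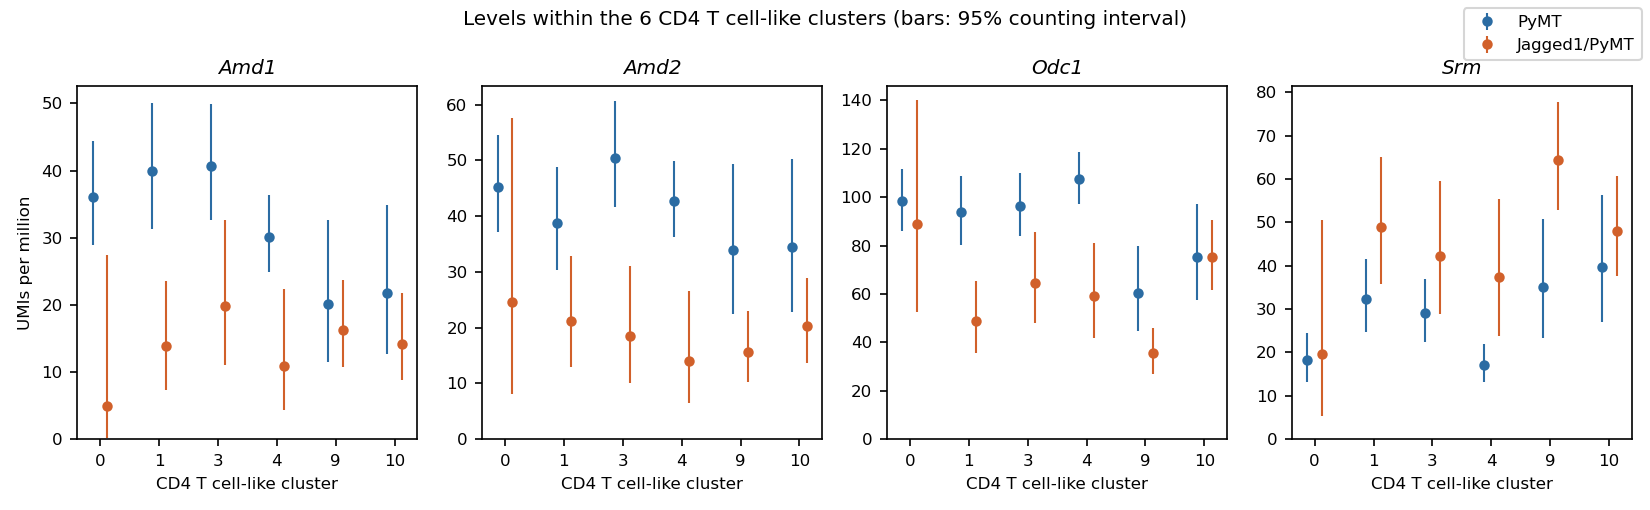
CPM (y axis) of Amd1, Amd2, Odc1 and Srm in each CD4 T cell-like cluster (x axis, by cluster number); points are 1 library per genotype and bars 95% Poisson intervals. Amd1 and Amd2 are lower in Jagged1/PyMT in 6 of 6 clusters, and Srm is higher in 6 of 6, with wide bars in cluster 0, which held 60 Jagged1/PyMT cells.

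Counted per cell rather than per UMI, and thinned to 1000 UMIs per cell, 6.97% (6.11 to 7.92) of PyMT and 2.95% (2.18 to 3.91) of Jagged1/PyMT CD4 T cell-like cells had a UMI of Amd1 or Amd2. Unthinned, the shares were 22.1% and 10.5%, at median depths of 3580 and 3414 UMIs. For CD8 T cell-like cells the thinned shares were 9.03% and 2.66% and the unthinned ones 36.2% and 13.4%. Neutrophil-like cells, a class with few, had 0 of 101 (up to 3.59%) and 4 of 336 (1.19%) when thinned, and 5.83% and 3.43% unthinned at median depths of 2514 and 2869 UMIs. Thinning left out 61 PyMT and 57 Jagged1/PyMT CD4 T cell-like cells, 8 and 15 CD8 T cell-like cells, and 2 and 14 neutrophil-like cells. No class is known to lack these genes, so no class gives their background.

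Srm, which makes spermidine, was higher in CD4 and CD8 T cells of Jagged1/PyMT. CD4 T cell-like cells stood at 24.7 CPM (21.98 to 27.8) in PyMT against 49.95 CPM (44.3 to 56.1) in Jagged1/PyMT (log2 ratio 1.01, 0.77 to 1.26). CD8 T cell-like cells held 36.7 and 64.4 CPM (log2 ratio 0.81, 0.54 to 1.08), and NK cell-like cells 28.3 and 75.1 CPM (1.41, 0.71 to 2.15). In B cell-like cells the values were 25.8 and 23.8 CPM (−0.12, −0.56 to 0.31, but 0.23 with doublets kept). Macrophage-like cells held 46.5 and 67.3 CPM (0.53, 0.21 to 0.87), a direction that turned to −0.22 with the coarser clustering. Not all T cells shared it: regulatory T cell-like cells, at 40.5 and 41.0 CPM, gave 0.02 (−0.84 to 0.83).

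The T cell difference in Srm was smaller under some choices. With classes set by core gene UMIs in place of clusters, the CD4 ratio was 0.43 and no longer past 1.5-fold. Thinned to 1000 UMIs, the CD8 ratio was 0.30. Within the CD4 clusters, the log2 ratio was 1.12 in cluster 4, 0.87 in cluster 9, 0.59 in cluster 1, 0.54 in cluster 3, 0.28 in cluster 10 and 0.11 in cluster 0, and the first 3 of these had intervals above 0. The share of cells with an Srm UMI was 2.58% and 4.46% in thinned CD4 T cell-like cells, and 8.18% and 14.6% unthinned.

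Cycling T cell-like cells, at 202 CPM (165.9 to 244.2) in PyMT but 99.6 CPM (76.0 to 128.2) in Jagged1/PyMT (log2 ratio −1.02, −1.5 to −0.55), held more Srm than CD4 T cell-like cells, 8.18-fold (6.49 to 10.2) and 1.99-fold (1.48 to 2.64). These are 24 and 31 cells. Epithelial-like cells came first among the 13 classes with 81.4 and 82.7 CPM. In Jagged1/PyMT they did not differ from the next class, NK cell-like cells (75.1 CPM), beyond the interval of their ratio. Mature dendritic cell-like cells came last with 1 UMI (1.48 CPM) in PyMT and 3 UMIs (5.90 CPM) in Jagged1/PyMT, a ratio to CD4 T cell-like cells of 0.0597 (0.00151 to 0.335) and 0.118 (0.0242 to 0.349). Their median depth of 10218 and 7653 UMIs was above that of T cells. Free RNA held Srm at 33.6 and 41.9 CPM.

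Sms, which makes spermine, varied among classes much as Odc1 did and differed little between genotypes. It was at 106.9 and 112.7 CPM in regulatory T cell-like, 90.2 and 125.7 in NK cell-like, 92.5 and 105.5 in B cell-like, and 56.9 and 72.3 CPM in CD4 T cell-like cells. Deep macrophage-like cells held 37.3 and 36.02 CPM. Neutrophil-like cells were lowest with 3 UMIs (9.09 CPM) and 18 UMIs (12.5 CPM), 0.160-fold (0.0329 to 0.469) and 0.173-fold (0.102 to 0.277) the CD4 level. Cycling T cell-like cells held 187 and 156 CPM, 3.29-fold (2.64 to 4.07) and 2.16-fold (1.71 to 2.71) the CD4 level.

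The log2 ratio of Sms between genotypes was 0.35 (0.17 to 0.53) in CD4, 0.38 (0.17 to 0.59) in CD8 and 0.19 (−0.02 to 0.40) in B cell-like cells. The CD4 value was 0.09 with core gene classes. In macrophage-like cells it was 0.01 (−0.32 to 0.35), which turned to −0.64 with the coarser clustering and −0.38 without second-lineage barcodes. None of these 4 values passed 1.5-fold as reported. The widest value was in epithelial-like cells, at 47.2 CPM (51 UMIs) in PyMT against 93.3 CPM (44 UMIs) in Jagged1/PyMT (0.98, 0.37 to 1.60). Across the 26 class profiles (13 classes in each library), Sms and Odc1 correlated with r = 0.739 on log2(CPM + 10), 0.778 within PyMT and 0.767 within Jagged1/PyMT. This is a description over classes that share 2 libraries.

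**Figure D4:**
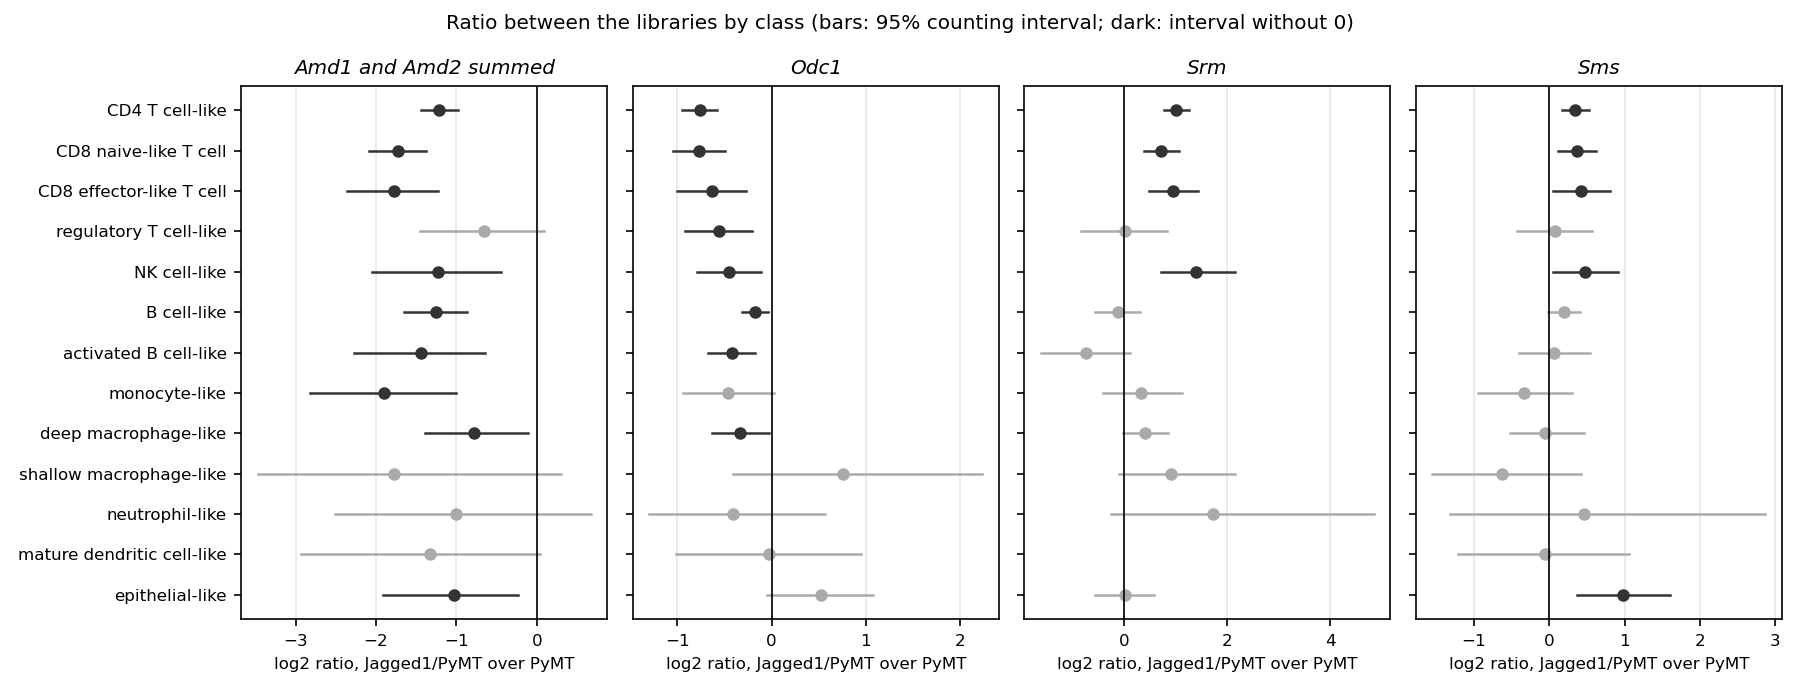
Log2 ratio of Jagged1/PyMT over PyMT (x axis) for Amd1 and Amd2 summed, Odc1, Srm and Sms in the 13 classes (y axis); bars are 95% intervals from exact binomial limits, dark where the interval holds no 0. The sum of Amd1 and Amd2 is below 0 in 13 of 13 classes, and Srm, drawn for 12 classes, is above 0 in 10.

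Sat1, the acetyltransferase that starts polyamine breakdown, was most abundant in macrophage-like, neutrophil-like and monocyte-like cells of these tumours. Shallow and deep macrophage-like cells held 1886 and 1520 CPM in PyMT, and 1705 and 1944 CPM in the other library. Neutrophil-like cells held 1145 and 1137 CPM, monocyte-like cells 969.5 and 1090 CPM, and mature dendritic cell-like cells 709 and 807 CPM. The cDC2-like cells, few in number, held less, at 319 and 374 CPM. All macrophage-like cells together stood at 1416 and 1704 CPM against 164 and 183 CPM in CD4 T cell-like cells, 8.64-fold (8.14 to 9.17) and 9.33-fold (8.77 to 9.93). CD8 effector-like T cells were last with 100.5 and 136.5 CPM and did not differ from CD8 naive-like T cells (105 and 142.7 CPM) beyond the interval. The monocyte-like cluster, named for F13a1, Chil3 and Fn1, also had Mrc1, Cbr2 and Pf4, which are listed as markers of resident-like macrophages. Its C1qa was at 544.7 and 1149 CPM, and the share of macrophages in it was not tested.

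Among lymphocytes, regulatory T cell-like cells held more Sat1 than CD4 T cell-like cells, with 289.7 and 387 CPM (1.77-fold, 1.55 to 2.0, and 2.12-fold, 1.81 to 2.48). Activated B cell-like cells stood at 348 and 375 CPM and B cell-like cells at 258.8 and 294.5 CPM. The mixed T and macrophage barcodes lay in between the 2 types, at 579.6 and 606.7 CPM, 3.54-fold and 3.32-fold the CD4 level and 0.409-fold and 0.356-fold the macrophage level. Free RNA held 286 CPM in the PyMT library and 971 CPM in the other, more than CD4 and CD8 T cell-like cells in both libraries. C1qa, a macrophage marker, was at 6.04 and 26.6 CPM in CD4 T cell-like cells and at 8.78 and 35.2 CPM in CD8 T cell-like cells. In regulatory T cell-like cells it was at 125.6 and 467 CPM, and the part of macrophage RNA in their Sat1 level was not tested.

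As reported, no class of at least 200 cells differed over 1.5-fold in Sat1 between genotypes. The log2 ratio was 0.16 (0.05 to 0.27) in CD4, 0.44 (0.27 to 0.61) in CD8, 0.19 (0.06 to 0.31) in B and 0.27 (0.21 to 0.33) in macrophage-like cells. With 5% of each class taken as free RNA and subtracted, it was −0.16 in CD4, 0.04 in CD8 and 0.01 in B cell-like cells. Thinned to 1000 UMIs, the CD8 value was 0.71, past 1.5-fold. The macrophage value was 0.00 when thinned and 0.03 as a mean over cells.

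Oaz1, the antizyme, was nearly even. Over the 13 classes it ran from 888 CPM in neutrophil-like to 1478 CPM in NK cell-like cells in the PyMT library, 1.66-fold, and from 984 CPM in mature dendritic cell-like to 1648 CPM in shallow macrophage-like cells in Jagged1/PyMT, 1.68-fold. The next narrowest gene, Azin1, spanned 5.18-fold and 3.06-fold. Cycling T cell-like cells were above that range at 1895 and 1877 CPM, 1.52-fold (1.43 to 1.62) and 1.47-fold (1.38 to 1.57) the CD4 level, as were gamma-delta T cell-like (1567 and 2084 CPM) and, in PyMT, plasmacytoid dendritic cell-like cells (1953 and 1632 CPM). The log2 ratio between genotypes lay between 0.03 and 0.23 in all 13 classes, and 5 intervals were above 0. All macrophage-like cells gave 0.13 (0.07 to 0.19), which turned to −0.01 with the coarser clustering. Free RNA held Oaz1 at 1019 and 1112 CPM.

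Azin1, the antizyme inhibitor, was highest in monocyte-like cells (123 and 72.1 CPM) and deep macrophage-like cells (106 and 67.1 CPM) among the 13 classes. No neighbours in that order differed beyond the interval of their ratio in either library. The few plasmacytoid dendritic cell-like cells held 205.6 and 127.7 CPM. CD4 T cell-like cells held 42.3 and 34.3 CPM, so that deep macrophages stood 2.51-fold (2.03 to 3.08) and 1.96-fold (1.67 to 2.30) above them. Shallow macrophage-like barcodes were lowest with 23.8 and 23.5 CPM, 0.224-fold (0.0714 to 0.538) and 0.351-fold (0.262 to 0.461) the level of deep ones. In macrophage-like cells together the level was 97.6 CPM against 66.6 CPM (log2 ratio −0.55, −0.78 to −0.32), in deep macrophages −0.66 (−0.95 to −0.37) and in monocyte-like cells −0.77 (−1.19 to −0.35). The class value was −0.20 as a mean over cells and −0.21 when thinned. CD4 T cell-like cells gave −0.30 (−0.55 to −0.06) and B cell-like cells −0.14 (−0.44 to 0.17). The CD4 value was −0.61, past 1.5-fold, when thinned, and −0.13 with core gene classes.

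The other pathway genes, from a list of 27, are set beside the 8; those named for passing 1.5-fold were chosen after their values were seen. In CD4 T cell-like cells 19 had at least 50 UMIs, of which 1 was over 1.5-fold higher in Jagged1/PyMT (Apip, of methionine salvage) and 3 were lower (Smox, Oat, Eif5a2), with a median log2 ratio of −0.07. In CD8 T cell-like cells, 1 of 16 was higher (Enoph1, also of methionine salvage) and 2 were lower (Smox, Oat), with a median of −0.16. Of 16 in B cell-like cells, 0 were higher and 0 lower (median −0.07). In macrophage-like cells 1 of 23 was higher, Arg1, and 0 were lower (median 0.03).

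Smox, spermine oxidase, which turns spermine back into spermidine, was at 24.5 and 12.5 CPM in CD4 T cell-like cells (log2 ratio −0.97, −1.37 to −0.59) and at 34.0 and 21.4 CPM in CD8 T cell-like cells (−0.67, −1.07 to −0.28). Its highest level was in neutrophil-like cells, with 1091 CPM (981 to 1210) and 641 CPM (599.9 to 683.3) in the PyMT and the Jagged1/PyMT library, whereas deep macrophage-like cells held 251 and 145 CPM. B cell-like cells held 3.52 and 3.35 CPM. Oat, which links ornithine to proline and glutamate, was at 73.6 and 47.0 CPM in CD4 (−0.65, −0.85 to −0.45) and 52.8 and 30.9 CPM in CD8 T cell-like cells (−0.77, −1.10 to −0.45). In B cell-like cells it was at 102.5 and 98.5 CPM.

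Arg1, which makes ornithine from arginine, stood at 24.96 and 50.6 CPM in macrophage-like cells (log2 ratio 1.02, 0.58 to 1.49). The 1 cluster named for it held 19 PyMT and 369 Jagged1/PyMT cells, and deep macrophage-like cells held 0 and 12 UMIs. Eif5a, the translation factor that carries a residue made from spermidine, was at 656 and 671 CPM in CD4 T cell-like cells (0.03, −0.02 to 0.09) and at 635 and 733 CPM in macrophage-like cells (0.21, 0.12 to 0.30). Mat2a, which makes S-adenosylmethionine, was at 107.7 and 85.3 CPM in CD4 T cell-like cells (−0.34, −0.49 to −0.18) and at 99.3 and 73.0 CPM in macrophage-like cells (−0.44, −0.67 to −0.21).

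Growth and early response genes were set beside these. Myc was higher in Jagged1/PyMT in CD4 (17.1 and 34.8 CPM), CD8 (20.6 and 41.6 CPM) and B cell-like cells (156 and 385 CPM), and stood at 35.7 and 34.7 CPM in macrophage-like cells. Of the 11 growth genes measured in CD4 T cell-like cells 2 were higher (Myc, Polr1b) and 0 lower, with a median log2 ratio of 0.01, and of 10 in B cell-like cells 1 was higher (Myc) and 0 lower, with a median of −0.20. In CD8 T cell-like cells 1 of 10 was higher (Myc) and 1 lower (Nop56, median −0.05), and in macrophage-like cells 0 of 11 passed either way (median −0.04). Jun and Atf3, of the list of 7 early response genes, were over 1.5-fold higher in all 4 classes, and 3, 3, 4 and 4 of the list were higher in CD4, CD8, B and macrophage-like cells. Among 10 cycling genes, 5 were higher in macrophage-like cells and 0 of the 3, 2 and 2 measured in CD4 T, CD8 T and B cell-like cells. The macrophage-like class includes a cluster named by cycling genes (7 and 173 cells), whereas cycling T cell-like cells are kept apart from the CD4 and CD8 classes. Of all genes with at least 50 UMIs, 5.06%, 4.84%, 4.66% and 10.2% were over 1.5-fold higher in CD4, CD8, B and macrophage-like cells. The part of the growth, early response and cycling genes in the polyamine gene differences was not tested.

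Odc1 was then read in B cells of both kinds with and without a Myc UMI, each cell thinned to 2000 UMIs. In PyMT it was at 307.8 CPM in the 359 cells with Myc and 230.5 CPM in the 937 cells without, a ratio of 1.34 (1.13 to 1.57). In Jagged1/PyMT it was at 213 CPM in 605 cells with Myc and 240.7 CPM in 592 without, a ratio of 0.886 (0.746 to 1.05). Egr1, an activation gene, was 4.86-fold (4.19 to 5.64) and 4.46-fold (3.91 to 5.10) higher with Myc in the same cells. These include the activated cluster, which was itself named by Myc and Egr1 among other genes. Within B cell-like cells the Egr1 ratio was 2.40 (1.87 to 3.07) and 2.34 (1.74 to 3.15). Within activated B cell-like cells it was 1.22 (0.985 to 1.53) and 0.952 (0.819 to 1.11). Fos, an early response gene, was lower with Myc there (ratios 0.349, 0.271 to 0.45, and 0.699, 0.575 to 0.856). Within B cell-like cells Fos was higher (1.43, 1.2 to 1.69, and 1.2, 1.05 to 1.38). Of growth genes in B cells of both kinds, Ncl gave 1.13 (1.01 to 1.27) and 1.09 (0.963 to 1.23). Npm1 gave 1.16 (1.04 to 1.29) and 1.01 (0.917 to 1.12). Nop56 gave 1.25 (0.916 to 1.69) and 0.762 (0.545 to 1.06). Cad gave 0.773 (0.304 to 1.75) and 0.522 (0.192 to 1.31). Among B cell-like cells alone the Odc1 ratio was 1.24 (1.01 to 1.52) in PyMT and 0.794 (0.641 to 0.979) in the other library, and among activated B cell-like cells 1.01 (0.660 to 1.59) and 0.909 (0.574 to 1.5). The difference between the libraries in the Odc1 ratio was not tested, since cells are not replicates. Amd2 stood 1.99-fold (1.22 to 3.23) and 1.14-fold (0.490 to 2.70) higher with Myc, and Amd1 1.10-fold (0.572 to 2.02) and 3.13-fold (1.10 to 10.9), on 5 to 42 UMIs per group. For Srm the ratios were 1.58 (0.899 to 2.72) and 1.14 (0.638 to 2.06). Ratios for Sms, Sat1, Oaz1 and Azin1 lay between 0.944 and 1.22, with intervals that held 1. The same split was made in T cells and macrophages. In all T cell-like cells Odc1 gave 1.11 (0.764 to 1.56) in PyMT and 0.888 (0.491 to 1.49) in Jagged1/PyMT. Srm gave 1.16 (0.493 to 2.32) and 1.68 (1.05 to 2.59) there. In macrophage-like cells Odc1 gave 1.31 (0.831 to 1.97) in Jagged1/PyMT, and in PyMT only 13 cells had Myc.

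The 3 genes whose levels were most like each member over the 26 profiles were found by Pearson's r on log2(CPM + 10), again as a description without a p, over classes that share 2 libraries. For Amd1 they were Pabpc1 (r = 0.835), Nr1d2 (0.829) and Amd2 (0.825). Amd2 was most like Taf4b (0.858), Zzz3 (0.837) and Jmy (0.833). Of these, Pabpc1, Taf4b and Jmy were also among the 20 genes lower in all 4 classes. The profiles pool both libraries and hold the same UMIs as those ratios, so this overlap is no separate observation.

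Odc1 was most like Rfx1 (0.897), Rcc2 (0.885) and Srsf10 (0.880), and Sms like Snrpg (0.921), Gar1 (0.905) and Tnks2 (0.900). Srm followed Eef2kmt (0.909), Mrps28 (0.908) and Ppp1r14b (0.905). Sat1 followed Ftl1, a ferritin chain (0.962), Ctsz, a lysosomal protease (0.954), and Csf2ra, a myeloid cytokine receptor chain (0.95). Oaz1 was most like Ran (0.919), Ndufs3 (0.907) and Hint1 (0.895), and Azin1 like Ifrd1 (0.891), Ppp2ca (0.890) and Sertad1 (0.877). Between members, Sat1 had r of −0.727 to Amd2, −0.683 to Sms, −0.613 to Amd1, −0.474 to Odc1 and −0.191 to Srm.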

How the data were processed

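The values are raw UMI counts per gene and barcode in 1 matrix per genotype, deposited unnormalised; per the file headers, Cell Ranger 3.0.2 wrote them. The matrices list 737280 barcodes each, all with the same suffix, so the 2 samples of a genotype could not be told apart. No source used here gives the aligner, genome build or annotation; 30934 of the 31053 feature identifiers were found in GENCODE vM21. Doublets were scored with Scrublet in scanpy 1.11.5; its automatic threshold marked 0.0403% and 0%, so the top expected share (0.8% per 1000 barcodes) was left out. Log counts (scaled to 10000 a cell), 2000 variable genes, 30 components and 15 neighbours gave Leiden clusters at resolution 2, which was chosen after seeing the data. UMIs were summed per class and library and divided by the class total (CPM), with exact Poisson intervals; ratios have exact conditional binomial and shares exact Clopper-Pearson intervals. Levels are given for classes with at least 50 cells in each library, and counts over 1.5-fold for classes with at least 200. The ratio and its interval were tested on simulated data. No test was made, since there is 1 library per genotype. The 8 genes, the lists and the comparisons were chosen with earlier results of these data known. Genes were named by rule: the 8 members, up to 4 of each list with many UMIs, and the 3 most alike genes (at least 200 UMIs in each library); others were named after their values were seen. The 11 alternatives for each ratio changed the doublet, depth, mitochondrial, second-lineage, thinning, averaging, scaling, free RNA and class choices.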

Additional observations from a re-analysis of the deposited data

How the results depend on the processing

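Of the log2 ratios of single genes between genotypes, 319 values under the alternatives stayed within the counting interval of the reported value and 33 moved beyond it; 0 changed sign after passing 1.5-fold. With classes set by core gene UMIs, the number of genes over 1.5-fold higher was 0 in CD4 T cell-like and 1 in macrophage-like cells. The number lower was 1 in B cell-like and 0 in macrophage-like cells when thinned to 1000 UMIs, and 0 in both with genes of at least 200 UMIs, where Amd1 and Amd2 have too few UMIs to be counted. The number lower was also 2 in CD8 T cell-like cells with core gene classes, 4 in CD4 T cell-like cells when thinned, and 3 in macrophage-like cells under 4 alternatives (core gene classes, no second-lineage barcodes, at most 5% mitochondrial UMIs, the coarser clustering). As a mean over cells, 1 gene was higher and 1 lower in macrophage-like cells. The share of all genes past 1.5-fold is given for the reported setting only, so these changed counts cannot be set against their background. Thinning, for example, cut the genes measured in CD4 T cell-like cells from 8604 to 6082. The log2 ratio of Odc1 in B cell-like over CD4 T cell-like cells (1.38 in PyMT, 1.97 in Jagged1/PyMT) was 1.17 and 1.77 without mitochondrial and ribosomal genes in the total, and 1.10 and 1.74 with core gene classes. For Sat1 in macrophage-like over CD4 T cell-like cells (3.11 and 3.22) it was 3.45 and 3.39 without second-lineage barcodes, 2.69 and 2.79 without mitochondrial and ribosomal genes, and 3.23 and 3.63 with free RNA subtracted. In PyMT alone it also moved to 3.38 (mean over cells), 3.46 (thinned), 3.30 (core gene classes) and 2.84 (clustering at resolution 1, chosen after seeing the data, as were the sum of Amd1 and Amd2 and the values within CD4 clusters). Apart from the removal of genes by the UMI minimum, the cause was not tested. No paired analysis was possible because each genotype's samples share 1 table. Depth limits Amd1 and Amd2 most, with 22 and 28 UMIs in PyMT macrophage-like cells.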
